A study of Homo sapiens with 10 samples.

Results

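The tubulin genes described here are the rows of the deposited count table named TUBA1A, TUBA1B, TUBA1C, TUBA4A, TUBB, TUBB2A, TUBB2B, TUBB3, TUBB4B and TUBB6. They were chosen by name, with the measured count differences between these groups known, so those differences are described without p-values, and a gene's call in a fit over all genes is given only beside the share of all genes called. They are 10 of the 40664 genes in the table, and all 10 were among the 13990 genes that passed the filter on low counts. Of these, 4 encode alpha-tubulin and 6 encode beta-tubulin. They were measured by RNA sequencing in hTERT RPE-1, an established human retinal pigment epithelial cell line immortalised with telomerase, of which the labels name a single line. Cells carried siNemp1, an siRNA treatment named for NEMP1, a protein of the inner nuclear membrane, or were controls, and were grown on a substrate of 120 kPa (stiff) or 10 kPa (soft). The groups were siNemp1 at 120 kPa (n = 3), control at 120 kPa (n = 3), siNemp1 at 10 kPa (n = 2) and control at 10 kPa (n = 2). The labels list siRNA treatment for every library, do not say what the controls received, and give no time after treatment. Nothing in the labels says that replicates came from separate cultures, so errors and p-values measure how far these libraries differ from one another, and that may be technical spread.

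Microtubules are built from dimers of alpha- and beta-tubulin. Both subunits come from several genes, the isotypes, whose proteins are alike in their cores and differ mostly at the C-terminal tail that faces the outside of the microtubule. Cells also hold tubulin mRNA in check through autoregulation: when free dimers are plentiful, the factor TTC5 recognises the N-terminal residues of a nascent tubulin chain on the ribosome, and SCAPER with the CCR4-NOT deadenylase complex degrades the mRNA. TUBA1A and TUBB3 are best known from neurons, TUBB2A and TUBB2B from the brain, and TUBA1B, TUBA1C, TUBB, TUBB4B and TUBB6 are found in many dividing or non-neuronal cells.

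The opening of the coding sequence, which autoregulation reads at the protein level, is shown for each gene over its first 30 bases, because the autoregulation factor TTC5 reads the residues it encodes. The sequences were taken from the principal transcripts of GENCODE 29 on GRCh38, and the capitals mark the start codon and the next codons, 4 in all. TUBA1A, TUBA1B and TUBA1C have the same 30 bases here.
TUBA1A: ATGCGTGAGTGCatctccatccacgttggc
TUBA1B: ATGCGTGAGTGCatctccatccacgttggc
TUBA1C: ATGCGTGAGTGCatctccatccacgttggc
TUBA4A: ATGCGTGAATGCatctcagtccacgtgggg
TUBB: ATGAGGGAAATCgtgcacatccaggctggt
TUBB2A: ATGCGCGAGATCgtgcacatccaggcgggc
TUBB2B: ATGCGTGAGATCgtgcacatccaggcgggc
TUBB3: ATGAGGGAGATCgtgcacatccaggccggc
TUBB4B: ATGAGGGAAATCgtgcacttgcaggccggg
TUBB6: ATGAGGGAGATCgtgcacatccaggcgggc

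TUBA1A (ENSG00000167552), TUBA1B (ENSG00000123416) and TUBA1C (ENSG00000167553) lie together on chromosome 12 within 146.8 kb, at chr12:49184796-49189324 (minus strand), chr12:49127782-49131397 (minus strand) and chr12:49188736-49274603 (plus strand) of GRCh38, and TUBB2A (ENSG00000137267) and TUBB2B (ENSG00000137285) lie within 78.1 kb on chromosome 6. TUBA4A (ENSG00000127824) lies on chromosome 2, TUBB (ENSG00000196230) on chromosome 6 at chr6:30720201-30725426, TUBB3 (ENSG00000258947) on chromosome 16, TUBB4B (ENSG00000188229) on chromosome 9 and TUBB6 (ENSG00000176014) on chromosome 18. The coding sequences of TUBA1A and TUBA1B were 97.2% identical, those of TUBA1B and TUBA1C 96.83%, and those of TUBB2A and TUBB2B 98.13%. The other beta pairs had an identity of 80.98% to 87.73%. The authors' notes name Salmon, which shares reads among transcripts with the same sequence, so the share of 31-base words, read on either strand, found in no other gene of GENCODE 29 was counted as a measure of distinct sequence. It was 93.9% for TUBB6, 74.4% for TUBB4B, 60.1% for TUBA4A, 59.7% for TUBB, 52.9% for TUBA1C, 46.4% for TUBB2B, 40.4% for TUBA1A and 30% for TUBB2A. It was 9.37% for TUBB3, of whose words 89.5% also occur in the overlapping readthrough locus AC092143.1, and 6.57% for TUBA1B. TUBA1B is overlapped by 1 gene on the opposite strand, TUBA1B-AS1, which GENCODE 29 lists under the same Ensembl identifier as AC011603.2. TUBA1B shares 52.7% of its words with it, and 97.1% of the words of TUBA1B-AS1 occur in TUBA1B. TUBA1A and TUBA1C also overlap on opposite strands, and the sources used here do not give whether counting used the strand, so the split of counts within these pairs is uncertain.

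**Figure D1:**
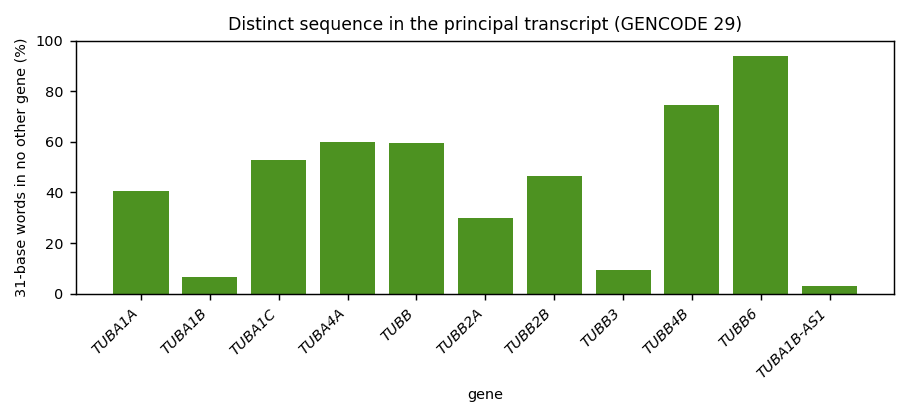
Bars give, for the principal transcript of each tubulin gene and of TUBA1B-AS1, the percentage of 31-base words that occur in no other annotated gene. TUBB6 has the most distinct sequence at 93.9%, TUBA1A stands at 40.4%, and TUBB3, TUBA1B and TUBA1B-AS1 are below 10%.

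The libraries held 17.9 to 23.8 M estimated counts. NEMP1, the targeted gene, stood at 7.52, 6.70 and 4.11 CPM (estimated counts per 1000000, scaled by TMM) with siNemp1 at 120 kPa, against 18.3, 14.0 and 14.1 CPM in controls. At 10 kPa it stood at 8.22 and 7.63 CPM with siNemp1, against 14.1 and 17.3 CPM in controls, so every siNemp1 library was below every control at both stiffnesses. Of the fixed marker lists, 4 of 7 epithelial genes reached a mean of 1 CPM (KRT8, KRT18, KRT7 and TJP1), while CDH1 and EPCAM did not. Of the retinal pigment epithelium list, 5 of 11 did so (BEST1, RDH5, PMEL, OTX2 and MITF). RPE65, RLBP1, LRAT, TTR, TYR and SERPINF1 were below 1 CPM. Of 8 neuronal markers, SNAP25 and SYT1 reached 1 CPM, and RBFOX3, ELAVL4, STMN2, DCX, SYP and GAP43 had means of at most 0.326 CPM. The summed neuronal list, nearly all of it SNAP25 and SYT1, was 89.3 to 110 CPM with siNemp1 and 94.8 to 124 CPM in controls at 120 kPa. At 10 kPa it was 113 to 116 CPM with siNemp1 and 123 to 126 CPM in controls. Of the lists for other cell types, 5 of 7 fibroblast genes (COL1A1, THY1, PDGFRA, PDGFRB and DCN), 2 of 4 leukocyte genes (PTPRC and CD68), 2 of 6 multiciliated cell genes and 0 of 4 endothelial genes reached 1 CPM. The summed fibroblast list was 314 to 736 CPM with siNemp1, against 690 to 908 CPM in controls at 120 kPa, and 765 to 766 CPM with siNemp1, against 948 to 951 CPM in controls at 10 kPa; its part in the tubulin values was not tested. The replicates differed far more at 120 kPa, with a chi-square per gene of 21.5 to 93.3 between replicates, than at 10 kPa, where it was 6.58 for siNemp1 and 2.67 for control.

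The total of the 10 tubulin genes overlapped between the groups. It was 9890.5, 8212 and 6045 CPM with siNemp1 at 120 kPa, against 8348, 7372 and 7325 CPM in controls. At 10 kPa it was 7826 and 8453 CPM with siNemp1, against 8129.6 and 8159 CPM in controls. The siNemp1 libraries at 120 kPa spanned the range of all the others, and the ratio of the siNemp1 mean to the control mean was 1.05 at 120 kPa and 0.999 at 10 kPa. Together the genes took 0.604% to 0.989% of the scaled counts of a library.

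Levels of different genes can be compared only per length, so CPM was divided by the median length of each gene's annotated transcripts. That median was shorter than the coding sequence for TUBA1A (946 against 1356 bases), TUBA1B (837.5 against 1356) and TUBA1C (885.5 against 1350). It was also shorter for TUBA4A, TUBB2A, TUBB3 and TUBB6, but not for TUBB (2746.5 against 1335 bases), TUBB2B or TUBB4B. The order of genes per kilobase depends on these lengths. On this scale TUBA1B was the most abundant in every group, with 3450.0 ± 986 CPM per kilobase with siNemp1 at 120 kPa (SD, n = 3), against 3393 ± 356 in controls (n = 3). With siNemp1 at 120 kPa TUBA1A came next at 1373 ± 369.7 CPM per kilobase, followed by TUBA1C at 691 ± 112, TUBB at 689 ± 165, TUBB3 at 504 ± 146 and TUBB6 at 438 ± 40.4. In controls at 120 kPa the order after TUBA1B was TUBB at 809 ± 139.6, TUBA1A at 726 ± 75.8, TUBA1C at 635 ± 60.8, TUBB3 at 523 ± 102 and TUBB6 at 411 ± 44.2 CPM per kilobase. TUBB4B, TUBA4A and TUBB2A followed in every group, and TUBB2B was the least abundant, at 5.98 ± 1.05 CPM per kilobase with siNemp1 and 5.68 ± 1.18 in controls at 120 kPa. Neighbours from TUBB to TUBB6 in the controls differed by less than their combined spread, so their order is not resolved. The lengths themselves bear on the order: with the length of the principal transcript, chosen after seeing the data, TUBA1B stood at 1776 ± 507 CPM per kilobase with siNemp1 and 1746 ± 183 in controls at 120 kPa. TUBA1A stood at 688 ± 185 with siNemp1 and 364 ± 38.0 in controls, below TUBB in both groups, which stood at 709 ± 169 with siNemp1 and 832 ± 144 in controls. TUBB4B moved to 290.4 ± 51.6 CPM per kilobase with siNemp1 and 314 ± 13.1 in controls, above TUBB3, TUBA1C and TUBB6. TUBA1B stayed the highest and TUBB2B the lowest under this length too.

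Among the alpha genes, TUBA1A was the gene that stood apart. It stood at 1641, 1314 and 942 CPM with siNemp1 at 120 kPa, against 713, 606 and 742 CPM in controls. All 3 siNemp1 libraries were above all 3 controls, and the third siNemp1 library was the nearest to them. The fitted log2 fold change was 0.92 ± 0.18 (SE), a fold of 1.89. At 10 kPa TUBA1A stood at 771 and 859 CPM with siNemp1, against 587 and 586 CPM in controls, again without overlap. There the log2 fold change was 0.47 ± 0.22, a fold of 1.39. The siNemp1 effect was larger at 120 kPa than at 10 kPa by 0.44 ± 0.29 on the log2 scale, a difference smaller than 2 SE. For that difference 0 of the 10 genes were called by edgeR, beside 0.00715% of all genes.

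TUBA1B, the main alpha isotype of these cells, had values in siNemp1 cells at 120 kPa that spanned those of the controls. It stood at 3700.4, 2917 and 2050.2 CPM with siNemp1, against 3181, 2622 and 2722 CPM in controls, a log2 fold change of 0.02 ± 0.19. At 10 kPa it stood at 2840.0 and 3129 CPM with siNemp1, against 2932 and 2891 CPM in controls, a log2 fold change of 0.04 ± 0.23. TUBA1B was thus the member whose fitted difference was nearest to 0 at 120 kPa, while its siNemp1 libraries spread over a wider range than its controls.

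TUBA1C, a further alpha isotype, stood at 719, 592 and 524 CPM with siNemp1 at 120 kPa, against 586, 501 and 601 CPM in controls, and the groups overlapped. The log2 fold change was 0.12 ± 0.13 at 120 kPa. At 10 kPa TUBA1C had a log2 fold change of 0.07 ± 0.16, with 517 and 559.6 CPM in siNemp1 cells against 511 and 517 CPM in controls, values that did not overlap but lay close together.

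TUBA4A, the alpha isotype known to be encoded without a C-terminal tyrosine, was the other alpha gene with higher means after siNemp1 at both stiffnesses by more than 1 SE. It stood at 131, 113 and 104 CPM with siNemp1 at 120 kPa, against 99.9, 92.8 and 106 CPM in controls, where the lowest siNemp1 library lay below the highest control. At 10 kPa it stood at 114 and 119.8 CPM with siNemp1, against 89.6 and 87.2 CPM in controls, without overlap. The log2 fold change was 0.22 ± 0.11 at 120 kPa and 0.40 ± 0.14 at 10 kPa, so TUBA4A was the member with the second largest difference at 10 kPa.

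TUBB, the main beta isotype, had the lowest fitted difference of the 10 genes. It stood at 2335, 1913 and 1431 CPM with siNemp1 at 120 kPa, against 2631, 2159 and 1872 CPM in controls. The groups overlapped at 120 kPa, and each siNemp1 library was below the control of the same replicate number. At 10 kPa TUBB stood at 2235 and 2448 CPM with siNemp1, against 2590.5 and 2663 CPM in controls, without overlap. The log2 fold change was -0.23 ± 0.18 at 120 kPa and -0.17 ± 0.22 at 10 kPa.

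The other beta genes differed by less than 1 SE in either comparison. TUBB4B, a broadly expressed isotype, stood at 545, 499 and 382 CPM with siNemp1 at 120 kPa, against 489, 531 and 520.1 CPM in controls, a log2 fold change of -0.11 ± 0.13. TUBB6 stood at 319, 309 and 267 CPM with siNemp1, against 247, 289 and 305 CPM in controls, a log2 fold change of 0.09 ± 0.12. Both genes overlapped between the groups at 120 kPa.

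TUBB3, the class III isotype used as a neuronal marker, stood at 427, 473 and 261 CPM with siNemp1 at 120 kPa, against 342, 490.2 and 372 CPM in controls, a log2 fold change of -0.05 ± 0.21. Its groups overlapped, and the neuronal markers other than SNAP25 and SYT1 were near 0 in the same libraries, as given above. TUBB2A stood at 59.4, 68.1 and 74.0 CPM with siNemp1, against 49.7, 68.2 and 71.7 CPM in controls, a log2 fold change of 0.09 ± 0.15. TUBB2B stood at 13.5, 12.4 and 9.47 CPM with siNemp1, against 8.51, 12.5 and 12.6 CPM in controls, a log2 fold change of 0.07 ± 0.19. At 10 kPa the log2 fold changes of TUBB2A, TUBB2B, TUBB3, TUBB4B and TUBB6 ran between -0.11 for TUBB4B and 0.13 for TUBB2B.

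**Figure D2:**
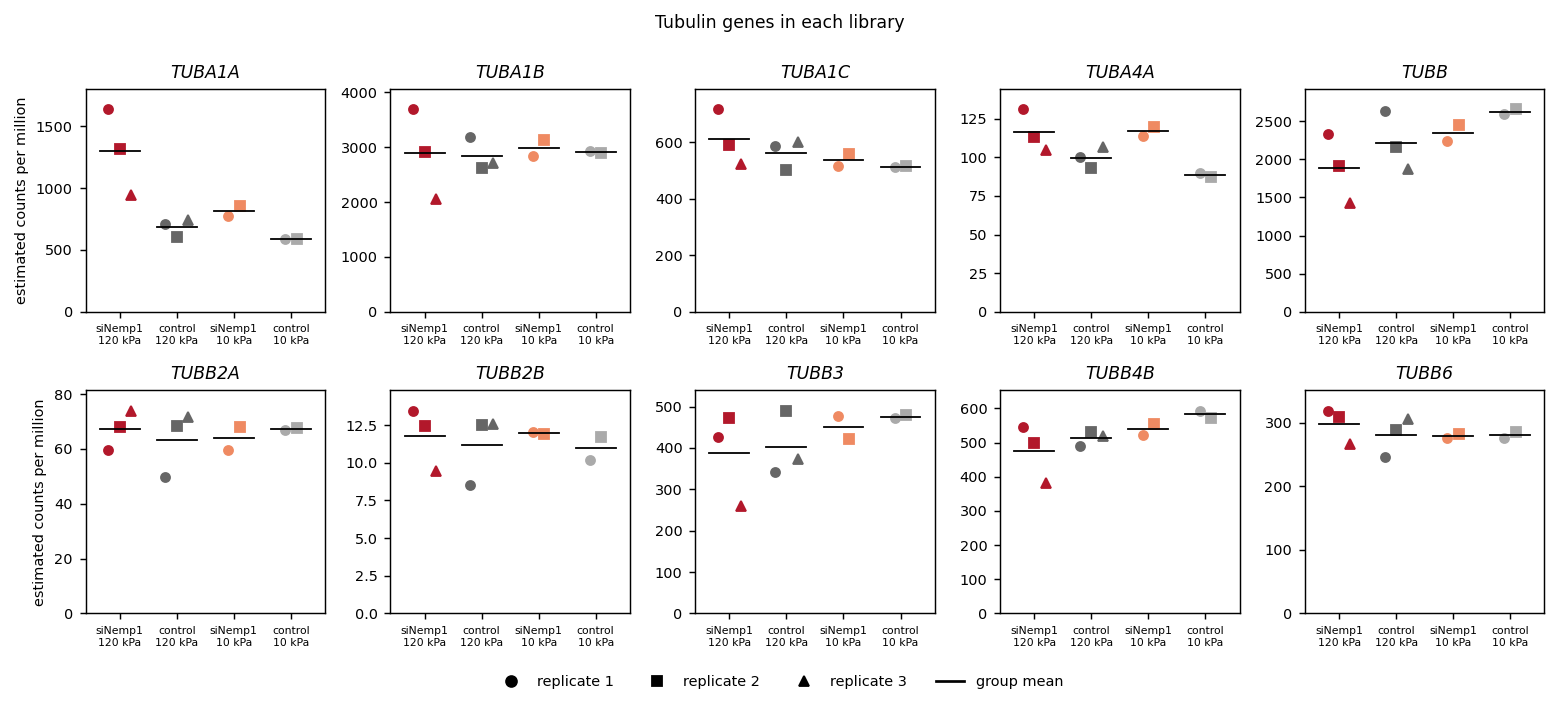
Each panel gives 1 tubulin gene in CPM (linear axis from 0) in every library, by group, with the replicate number as the marker shape and the group mean as a bar. TUBA1A is the gene whose 3 siNemp1 libraries at 120 kPa, at 942 to 1641 CPM, lie above every control, which reach 742 CPM.

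Over the 10 genes, at 120 kPa the median log2 fold change of the 10 genes was 0.08, with 7 positive and 3 negative, beside a median of 0.0064 over all 13990 genes. At 10 kPa the median was 0.01, with 5 positive and 5 negative, beside -0.0018 over all genes. With an adjusted p under 0.05 by edgeR's quasi-likelihood test as the call, 0 of the 10 genes were called at either stiffness, as were 0% of all genes. At an unadjusted p under 0.05 the same test passed 2413 genes (17.2%) at 120 kPa and 850 genes (6.08%) at 10 kPa, and DESeq2 called 1 of the 10 genes at 120 kPa, TUBA1A higher, beside 7.94% of the 9107 genes to which DESeq2 gave an adjusted p. Non-overlapping groups were seen for 1 of the 10 genes at 120 kPa (TUBA1A), where 17.9% of all genes had them. At 10 kPa they were seen for 6 of the 10 (TUBA1A, TUBA1C, TUBA4A and TUBB2B higher, TUBB and TUBB4B lower), where 57.3% of all genes had them, 28.8% higher and 28.5% lower.

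At 120 kPa the deviations of siNemp1 and control libraries with the same replicate number correlated over all 13990 genes. The r was 0.426, 0.157 and 0.359 for numbers 1, 2 and 3. The labels do not say what a replicate number stands for, so the pairing used below is an assumption. TUBA1A itself deviated by 0.37, 0.05 and -0.43 with siNemp1 and by 0.06, -0.18 and 0.12 in controls. Its signs thus differed in replicates 2 and 3. When the fit held the replicate number as a block, 1 of the 10 genes, TUBA1A, was called higher, beside 8.75% of all genes called. The blocked log2 fold change of TUBA1A was 0.89 ± 0.17. Without the pair of libraries numbered 2, TUBA1A was no longer called and the calls over all genes fell to 2, against 1552 without pair 1 and 755 without pair 3. At 10 kPa, a fit of the 4 libraries of that stiffness alone, which takes its spread only from them, called 3 of the 10 genes, TUBA1A and TUBA4A higher and TUBB lower, beside 17.3% of all genes. The common dispersion was 0.00423 in that fit and 0.0387 over all libraries.

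**Figure D3:**
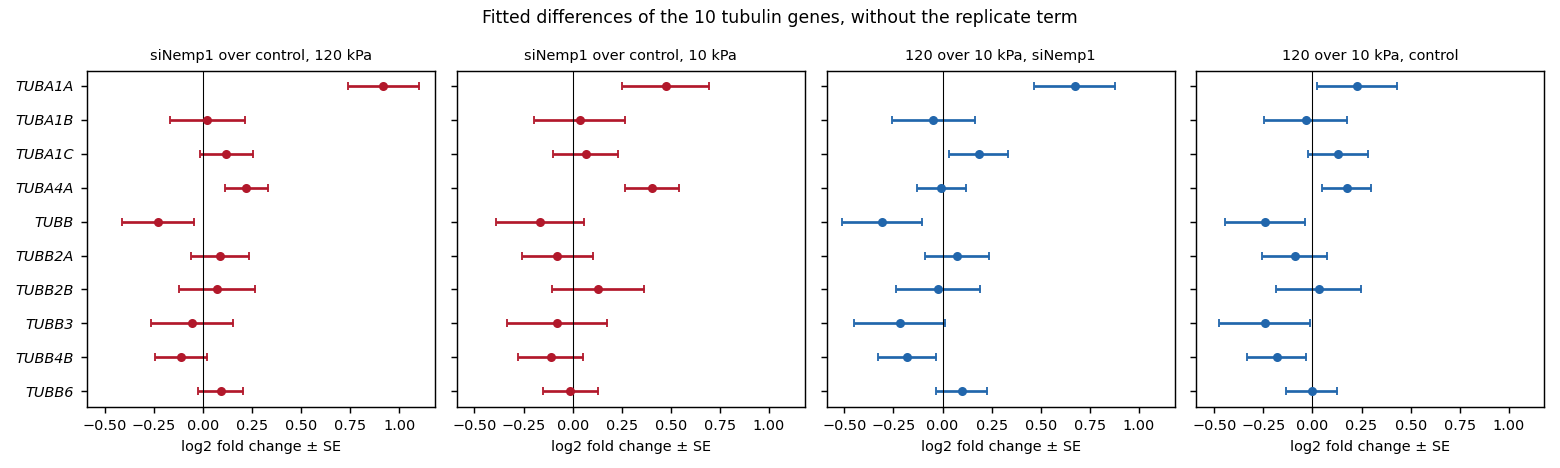
Points give the fitted log2 fold change of each tubulin gene and bars its SE, for siNemp1 over control at 120 kPa and 10 kPa and for 120 kPa over 10 kPa in siNemp1 and control cells. TUBA1A has the largest positive value in each panel, at 0.92, 0.47, 0.67 and 0.23, and the other genes lie within -0.31 to 0.40.

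Ratios between tubulin genes were taken within each library. TUBA1A over TUBA1B was 0.443, 0.450 and 0.459 with siNemp1 at 120 kPa, against 0.224, 0.231 and 0.273 in controls. At 10 kPa the ratio was 0.271 and 0.274 with siNemp1, against 0.20 and 0.203 in controls. The siNemp1 libraries at 120 kPa were thus above all the others and close to one another, although TUBA1A itself ran between 942 and 1641 CPM in them. TUBA1A alone also did not overlap between siNemp1 and control at 120 kPa, where 17.9% of all genes did not. No such share is given here for ratios of other gene pairs. As a share of the 4 alpha genes per kilobase of median length, TUBA1A made up 24.3%, 24.4% and 23.9% with siNemp1 at 120 kPa, against 14.1%, 14.4% and 16.2% in controls. The share was 16.5% and 16.7% with siNemp1 at 10 kPa, against 12.9% and 13.0% in controls, and with the principal transcripts it was 25.2% to 25.4% with siNemp1 and 14.7% to 17.0% in controls at 120 kPa.

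The ratio of alpha to beta mRNA was higher with siNemp1 at both stiffnesses, and higher at 120 than at 10 kPa in both treatments. The siNemp1 mean over the control mean was 1.29 at 120 kPa and 1.19 at 10 kPa. The mean at 120 kPa over that at 10 kPa was 1.29 in siNemp1 cells and 1.19 in controls. The alpha genes together over the beta genes together gave 1.67, 1.51 and 1.49 with siNemp1 at 120 kPa, against 1.22, 1.08 and 1.32 in controls. At 10 kPa the ratio was 1.18 and 1.23 with siNemp1, against 1.03 and 1.00 in controls. These ratios compare counts that depend on transcript length, so the differences between groups can be read but not the distance from 1. At 120 kPa the alpha genes summed to a mean of 4916 CPM with siNemp1 and 4191 CPM in controls. TUBA1A alone had means of 1299 and 687 CPM there, and TUBA1B, TUBA1C and TUBA4A each overlapped between the groups. The beta genes summed to means of 3133 and 3491 CPM. No share of non-overlapping ratios is given here for other sets of genes. TUBB over TUBA1B was 0.631, 0.656 and 0.698 with siNemp1 at 120 kPa, against 0.827, 0.824 and 0.688 in controls, where the third control overlapped the siNemp1 libraries. At 10 kPa it was 0.787 and 0.782 with siNemp1, against 0.884 and 0.921 in controls.

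**Figure D4:**
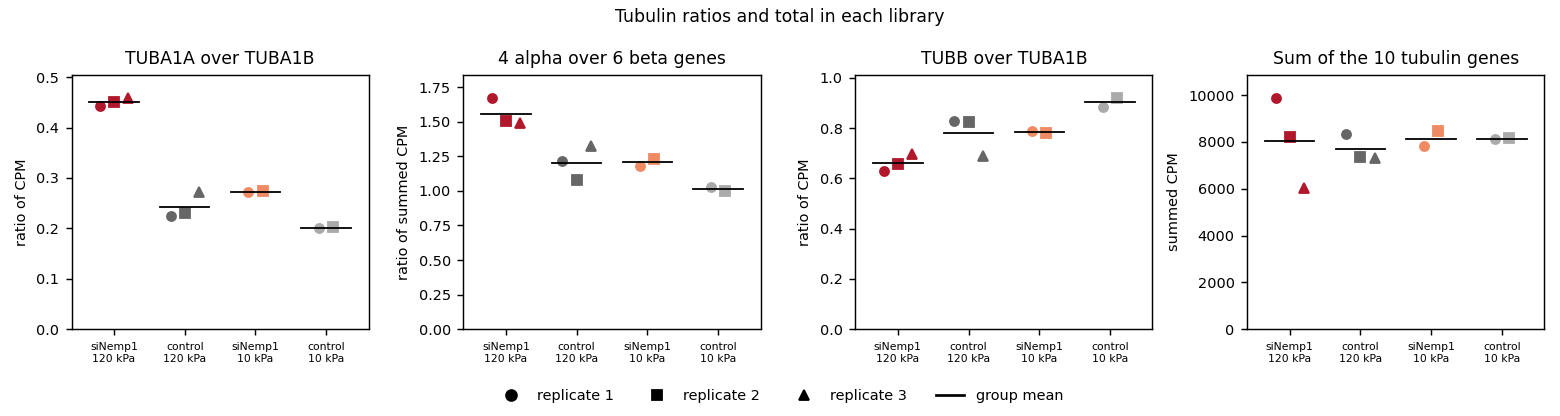
Panels give, for every library, the CPM ratio of TUBA1A to TUBA1B, of the 4 alpha to the 6 beta genes and of TUBB to TUBA1B, and the summed CPM of the 10 genes, with bars at the group means. The TUBA1A to TUBA1B ratio is 0.443 to 0.459 in the siNemp1 libraries at 120 kPa and at most 0.274 in every other library, while the sum of the 10 genes overlaps between all groups.

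When the counts of the near-identical TUBA1A, TUBA1B and TUBA1C were added before the fit, the log2 fold change of their sum was 0.23 ± 0.18 at 120 kPa and 0.11 ± 0.22 at 10 kPa. Most of that sum is TUBA1B, so it does not separate a difference of TUBA1A from a different split of shared reads, whose part was not tested. For TUBB2A and TUBB2B together it was 0.09 ± 0.14 at 120 kPa and -0.05 ± 0.17 at 10 kPa. TUBA1B-AS1 over TUBA1B lay between 0.196 and 0.220 in every library, and adding its counts to TUBA1B gave 0.03 ± 0.19 at 120 kPa.

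Stiffness was compared within each treatment. With siNemp1, TUBA1A had higher values at 120 kPa (942 to 1641 CPM) than at 10 kPa (771 and 859 CPM), a log2 fold change of 0.67 ± 0.21, and its groups did not overlap, which held for 33.7% of all genes. In controls TUBA1A stood at 606 to 742 CPM at 120 kPa, against 586 and 587 CPM at 10 kPa, a log2 fold change of 0.23 ± 0.20. There 3 of the 10 genes did not overlap, TUBA1A and TUBA4A higher and TUBB4B lower at 120 kPa, beside 22.2% of all genes. TUBA4A stood at 99.9, 92.8 and 106 CPM in controls at 120 kPa, against 89.6 and 87.2 CPM at 10 kPa, a log2 fold change of 0.17 ± 0.12. TUBB had the most negative difference with siNemp1, -0.31 ± 0.20. In controls TUBB and TUBB3 were both at -0.24, with an SE of 0.20 for TUBB and 0.23 for TUBB3, and both genes overlapped between the groups in both treatments. The median of the 10 genes was -0.015 in siNemp1 cells, beside 0.022 over all genes, and -0.019 in controls, beside -0.0055 over all genes. By edgeR's quasi-likelihood test 0 of the 10 were called in either comparison, beside 0% of all genes in siNemp1 cells and 0.0143% in controls. The stiffness and siNemp1 comparisons share libraries, so their values are not independent.

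Within the siNemp1 group at 120 kPa the replicates differed together. TUBA1A lay 0.37 above the group mean on the log2 scale in replicate 1 and -0.43 from it in replicate 3, and TUBB lay 0.33 above and -0.37 from it. Replicate 3 was the lowest of the group for 9 of the 10 genes, the exception being TUBB2A, which lay 0.14 above its mean there. TUBB3 had the widest spread, with replicate 3 at -0.52. Across the 10 libraries the deviations of TUBA1A correlated with those of TUBA1B at r = 0.94, of TUBA1C at 0.96, of TUBA4A at 0.94 and of TUBB2A at -0.43, as a description of libraries that share their group means and, for the alpha genes, sequence. NEMP1 itself was lowest in that replicate, at 4.11 CPM. The mitochondrially encoded share of counts was 1.06%, 0.826% and 0.709% in these libraries, against 1.73%, 1.40% and 0.913% in controls. Ribosomal protein genes took 5.52%, 5.89% and 6.97% of counts with siNemp1 at 120 kPa, against 4.44%, 4.69% and 6.40% in controls. The part of these measures in the tubulin values was not tested.

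**Figure D5:**
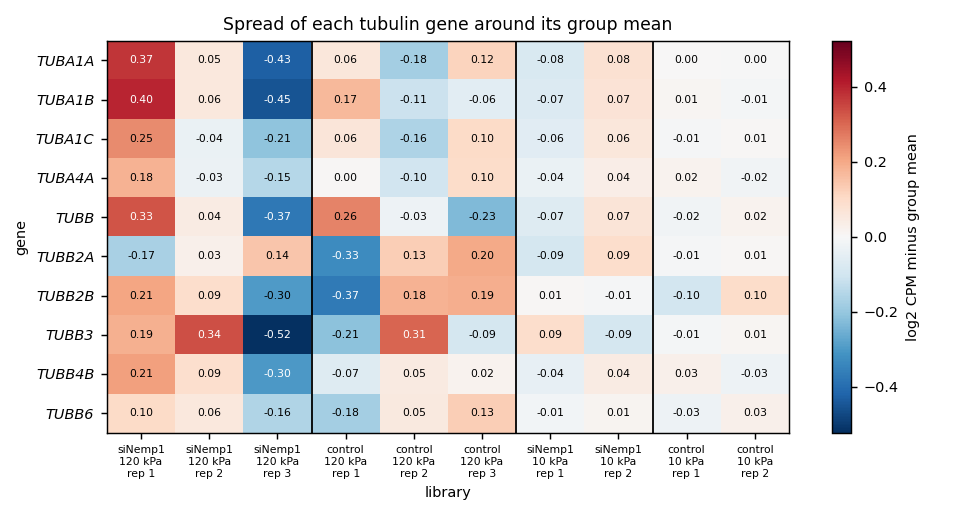
Cells give the log2 CPM of each tubulin gene minus the mean of its group, for every library, with vertical lines between the groups. Replicate 3 of siNemp1 at 120 kPa is below the mean for 9 genes, down to -0.52 for TUBB3, and the control libraries at 10 kPa lie within -0.10 and 0.10.

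Beside the tubulin values, 10 proliferation genes were summed in each library. The sum was 953, 737 and 539 CPM with siNemp1 at 120 kPa, against 942, 784 and 811 CPM in controls, and 844 and 853 CPM with siNemp1 at 10 kPa, against 950.4 and 943 CPM in controls. Replicate 3 of siNemp1 at 120 kPa was the lowest library by this sum and by the tubulin sum. MKI67, a nuclear protein of cycling cells, stood at 60.9, 51.0 and 31.5 CPM with siNemp1 at 120 kPa, against 91.3, 74.5 and 83.4 CPM in controls. In the blocked edgeR fit, in which 2.51% of all genes fell, 2 of the 10 genes fell, MKI67 by 0.84 ± 0.16 on the log2 scale (adjusted p = 0.016) and CENPF, a kinetochore protein, by 0.61 ± 0.10 (adjusted p = 0.00851). Without the pair numbered 2, 0 genes of this list were called. The list was chosen with earlier results of these data known, so its adjusted p-values describe these libraries only. In the fit without the block MKI67 had an adjusted p of 0.0886 by edgeR at 120 kPa. In bulk RNA, fewer cells of a kind and less RNA per cell cannot be told apart, and the part of the proliferation genes in the tubulin values was not tested.

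Genes that act on tubulin were followed in fixed lists, all fitted with all genes by edgeR. The lists were chosen with earlier results of these data known, so the adjusted p-values of their genes are a description and no independent test. In the fit without the block 0 genes of any list passed an adjusted p of 0.05 in any comparison, while at 120 kPa 17.2% of all genes had an unadjusted p under 0.05. That held for 9 of 20 folding, 5 of 18 modifying, 4 of 18 nucleation, 4 of 20 microtubule-associated, 2 of 9 autoregulation, 2 of 10 proliferation, 1 of 12 destabilising and 0 of 5 further tubulin genes. Of the list genes to which DESeq2 gave an adjusted p, it called 1 of 18 folding, 2 of 9 modifying, 2 of 16 nucleation, 3 of 17 microtubule-associated, 2 of 8 autoregulation, 2 of 10 proliferation, 0 of 10 destabilising and 0 of 3 further tubulin genes, beside 7.94% over all such genes. The calls at 120 kPa given next come from the blocked fit, in which 6.24% of all genes rose and 2.51% fell. The folding list holds the CCT chaperonin that folds tubulin, the prefoldin that delivers it and the cofactors that assemble the dimer. Of its 20 tested genes 6 rose and 1 fell, and the median log2 fold change without the block was 0.28. CCT7, a chaperonin subunit, stood at 503, 491 and 546 CPM with siNemp1, against 328, 368 and 464 CPM in controls, with a log2 fold change of 0.42 ± 0.10 (adjusted p = 0.0227). CCT2 rose by 0.34 ± 0.09 (adjusted p = 0.0375), and the prefoldin subunit PFDN4 by 0.65 ± 0.12 (adjusted p = 0.0126). PFDN6, another prefoldin subunit, was counted at 0 in all siNemp1 libraries and at most at 1.18 CPM in controls, a level too low for a fold. The tubulin cofactors TBCA, TBCB, TBCC, TBCD and TBCE were not called. Without the pair numbered 2, 0 genes of any list were called in the blocked fit.

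Of the autoregulation list 9 genes were tested. CNOT8, a deadenylase subunit of CCR4-NOT, stood at 44.8, 46.8 and 47.0 CPM with siNemp1 at 120 kPa, against 29.6, 27.7 and 29.4 CPM in controls, and rose by 0.68 ± 0.10 (adjusted p = 0.00766, blocked edgeR fit). CNOT7, its paralog, rose by 0.31 ± 0.09 (adjusted p = 0.0488). Neither was called without the pair numbered 2. SCAPER, the adaptor between TTC5 and CCR4-NOT, stood at 18.1, 17.0 and 17.6 CPM with siNemp1, against 23.5, 20 and 15.1 CPM in controls, a log2 fold change of -0.15 ± 0.17 without the block. TTC5 belongs to this fixed list, but no value of its own is given here.

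Of 12 further tubulin genes 5 were tested and 0 were called at 120 kPa. TUBG1, the gamma-tubulin of the nucleating complex, stood at 184, 147 and 133 CPM with siNemp1 at 120 kPa, against 185, 172 and 178 CPM in controls, a log2 fold change of -0.20 ± 0.13. TUBE1, encoding the epsilon-tubulin of centrioles, stood at 8.50, 10.2 and 17.5 CPM with siNemp1, against 7.20, 8.76 and 9.31 CPM in controls. The alpha genes TUBA3C and TUBAL3 were listed at 0 in every library, and TUBA3D, TUBA3E, TUBA8, TUBB1 and TUBB8 reached at most 0.505 CPM. Of 18 tested genes of the gamma-tubulin ring complex and its recruiters 1 rose, MZT1, a small subunit of the complex, by 0.62 ± 0.12 (adjusted p = 0.0156), a call lost without the pair numbered 2.

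Of 18 tested tubulin modifying enzymes 1 rose and 1 fell. AGBL5, which removes glutamates from tubulin tails, rose by 0.41 ± 0.09 (adjusted p = 0.0254). TTLL3, a ligase that adds glycine, stood at 10.2, 8.90 and 6.31 CPM with siNemp1 at 120 kPa, against 17.8, 18.2 and 12.8 CPM in controls, and fell by 0.95 ± 0.13 (adjusted p = 0.00615), with the caution that the readthrough gene ARPC4-TTLL3 shares its sequence. TTL, which adds the C-terminal tyrosine to alpha-tubulin, had a log2 fold change of 0.10 ± 0.15 without the block. Of 20 tested microtubule-associated and plus-end genes 3 fell. They were CKAP5, a microtubule polymerase, by 0.54 ± 0.09 (adjusted p = 0.0097), MAP1A by 0.49 ± 0.10 (adjusted p = 0.0162) and MAP4, the main lattice-binding protein of non-neuronal cells, by 0.42 ± 0.09 (adjusted p = 0.0172). All of these calls of modifying and microtubule-associated genes were lost without the pair numbered 2. MAP4 stood at 227, 236 and 209 CPM with siNemp1 at 120 kPa, against 296, 320.0 and 283 CPM in controls. Of 12 tested destabilising and severing genes 0 were called, and STMN1, which sequesters tubulin dimers, had a log2 fold change of 0.05 ± 0.19 at 120 kPa and -0.04 ± 0.24 at 10 kPa.

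At 10 kPa the fit of the 4 libraries alone, in which 8.1% of all genes rose and 9.19% fell, was read for the same lists. Of the microtubule-associated genes 0 rose and 10 fell by edgeR. Among those that fell, MAP1A had a log2 fold change of -0.49 ± 0.07 and MAP4 of -0.37 ± 0.06. Both were chosen after their values were seen, so no p is given for them. Of the folding genes 6 rose and 1 fell, again with CCT2, CCT4 and CCT7 among those that rose and PFDN6 as the gene that fell. PFDN6 was counted at 0 with siNemp1 at 10 kPa and at 0.782 to 0.809 CPM in controls, again too low for a fold. TUBG1, also chosen after its values were seen, was the further tubulin gene called, with a log2 fold change of -0.24 ± 0.06. Of the autoregulation genes CNOT8 rose and CNOT1 fell, of the proliferation genes MKI67, PLK1 and CENPF fell, of the destabilising genes KATNA1 rose and KIF2C fell, of the nucleation genes CDK5RAP2 and AKAP9 fell, and of the modifying enzymes TTLL4 and TTLL5 fell. With all libraries in the fit none of these was called at 10 kPa, where 850 genes in all had an unadjusted p under 0.05.

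The genes most like the tubulins were ranked among the 9501 genes whose mean reached 5 CPM. The log2 CPM of OBI1 had the highest Pearson correlation with the summed tubulin genes over the 10 libraries, r = 0.972, followed by PIGB at 0.965, RACGAP1 at 0.96, SPC24 at 0.956 and RGS4 at 0.956. By deviations from the group means the order was MLEC at 0.998, PGK1 at 0.997, HMGN3 at 0.995, TMSB4X at 0.994 and CDCA3 at 0.993. These libraries share their groups and, at 120 kPa, the spread between replicates described above, and the correlations describe them only.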

How the data were processed

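Bulk RNA of 10 libraries in 4 groups was sequenced after removal of ribosomal RNA with random-primed cDNA, per the labels' protocols. The authors deposited estimated counts per gene, not normalized; per the submitters' processing notes the tools were FastQC 0.11.9, Trimmomatic 0.33, Salmon 1.80 and edgeR with GRCh38. No source used here gives the annotation release or the strand setting.

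The deposited estimated counts were first rounded to integers, then filtered with filterByExpr over the 4 groups (13990 of 40664 genes kept), scaled by TMM and fitted with edgeR 4.0.16 (R 4.3.3; quasi-likelihood, robust, 1 mean per group, 6 residual degrees of freedom). Genes were called at a Benjamini-Hochberg adjusted p under 0.05 over all tested genes. SE is the log2 fold change over the root of the F statistic. Other settings were DESeq2 1.42.0, other scalings and filters, subsets of libraries and the replicate number as a block. The blocked fit had 4 residual degrees of freedom. The fit at 10 kPa alone rested on 2 libraries per group and had fewer still. Same-numbered siNemp1 and control libraries at 120 kPa deviated together, with r of 0.426, 0.157 and 0.359 for numbers 1, 2 and 3 over 13990 genes. By the rule set for 3 or more pairs, every r above 0.1, the blocked fit took the numbers as pairs. The labels do not say what a replicate number stands for, and no r of differently numbered libraries is given here. The blocked fit also took the 10 kPa libraries by number. At 10 kPa r was 0.0171 over 2 pairs. Transcript lengths, 31-base words and sequences came from GENCODE 29, which may not be the annotation the authors used. The tubulin genes and all lists were chosen with earlier results of these data known, so the tubulin genes get no p of their own. For the same reason the p-values of list genes describe these libraries and are not independent tests. Genes outside them are named by rule: of each list up to 4 called genes with the smallest p, with NEMP1, STMN1, SCAPER, MKI67 and the 5 genes most correlated with the tubulin sum by each measure. Genes named outside this rule, TUBG1, TUBE1, TTL, the further tubulins near 0, the tubulin cofactors and the list genes given at 10 kPa, were chosen after their values were seen.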

Additional observations from a re-analysis of the deposited data

How the results depend on the processing

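With single libraries left out, the fitted log2 fold change at 120 kPa took either sign for TUBA1B (-0.21 to 0.18), TUBA1C (-0.03 to 0.18), TUBB2A (-0.06 to 0.17), TUBB2B (-0.10 to 0.18) and TUBB3 (-0.22 to 0.13). The median of the 10 genes at 120 kPa, 0.08, ran between -0.04 and 0.16 when single libraries were left out, so its sign is not fixed. TUBA1A ran between 0.70 and 1.07 there. With TUBA1A, TUBA1B and TUBA1C summed, or without pair 1 under the replicate block, 7 of 910 single-gene values moved by more than the spread between replicates. Of the 80 levels per kilobase under other lengths, 66 moved. The number of tubulin genes called at 120 kPa was 1 (TUBA1A) under DESeq2, no filter on low counts, a minimum of 5 CPM in 2 libraries and the block. It was also 1 (TUBA1A) under the block without pair 1, without pair 3 and in the 120 kPa libraries alone. It was 0 in the unblocked edgeR fit, also with DESeq2 size factors, with upper-quartile scaling or with only the groups compared. Under the block without pair 2 it was 0, and with single libraries left out it was 0 to 1. At 10 kPa it was 3 with only the groups compared, and in siNemp1 cells between stiffnesses 1 with no filter.

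Genes called at 120 kPa numbered 0 in the unblocked fit, 723 with DESeq2, 643 with no filter, 119 at 5 CPM, 1224 with the block, 1552, 2 and 755 with the block without pairs 1, 2 and 3, and 1255 with the block at 120 kPa alone. They also numbered 0 in edgeR with DESeq2 size factors, with upper-quartile scaling and with only the groups compared. They ran from 0 to 582 with single libraries left out. The 582 came without replicate 3 of the controls at 120 kPa, and 11 came without replicate 3 of siNemp1. At 10 kPa they numbered 22 with DESeq2, 66 with no filter, 4 with the block, 2308 with only the groups compared and 0 to 2 with libraries left out. For stiffness in siNemp1 cells they were 106 with DESeq2, 529 with no filter, 2 with the block, 1 with only the groups compared and 0 to 2 with libraries left out. In controls, 2 in the unblocked fit, they were 12 with DESeq2, 159 with no filter, 0 at 5 CPM, and 0 to 3 with libraries left out. For the difference between the siNemp1 effects, 1 in the unblocked fit, they were 4 with DESeq2, 70 with no filter, 0 at 5 CPM, 4 with the block and 0 to 3 with libraries left out.

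List genes called at 120 kPa are given for the block, then the block without pair 1, without pair 3, and at 120 kPa alone; under the block without pair 2 every list had 0. They were 1, 3, 2 and 2 for nucleation (DESeq2 2), 7, 7, 4 and 5 for folding (DESeq2 1, no filter 2, libraries left out 0 to 3), 2, 2, 1 and 2 for autoregulation (DESeq2 2, no filter 1, 5 CPM 1, left out 0 to 1), and 2, 2, 1 and 2 for the modifying enzymes (DESeq2 2, no filter 1, left out 0 to 1). They were 3, 3, 4 and 3 for microtubule-associated genes (DESeq2 3, no filter 2, left out 0 to 1) and 2, 5, 2 and 3 for proliferation (DESeq2 2, no filter 2, left out 0 to 1). The further tubulin genes had 1 with the block without pair 1. At 10 kPa with only the groups compared the counts were 1 for further tubulins, 2 for nucleation, 7 for folding, 2 for autoregulation, 2 for modifying, 10 for microtubule-associated, 2 for destabilising and 3 for proliferation genes, and folding had 1 with no filter. In siNemp1 cells between stiffnesses, no filter gave 1 each for further tubulins, folding and modifying enzymes, and DESeq2 1 for autoregulation. The cause of these moves was not tested.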
